A study of Homo sapiens with 6 samples.

Results

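The 10 chemokine genes of the CCL2 and CXCL group (CCL2, CCL5, CCL20, CXCL1, CXCL2, CXCL3, CXCL8, CXCL10, CXCL16 and CX3CL1) were followed after X-irradiation in the breast cancer line MDA-MB-231, which is triple-negative and of human origin. The 10 members were taken by gene symbol from a table of 61280 gene rows, and each symbol matched 1 row. The irradiated group received 20 Gy of X-rays and was cultured for 24 h afterwards; the control group was not treated; both were the same line in the same serum-containing medium. Each group had 3 libraries. Whether the numbered replicates were grown separately is not in the labels, and p-values may therefore reflect technical spread alone. Culture time is given for the irradiated group alone, and a difference in it cannot be told apart from irradiation. Levels are in TPM, which are divided by transcript length and scaled to the library total; the division allows levels of different genes to be compared; read depth is unknown. In bulk RNA, more cells that make a transcript and more transcript per cell cannot be told apart.

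Chemokines are small secreted proteins that direct the migration of leukocytes through G protein-coupled receptors, and they are held on cell surfaces by glycosaminoglycans. CCL2 attracts monocytes through CCR2, CCL5 attracts T cells and monocytes, and CCL20 is the ligand of CCR6. CXCL1, CXCL2, CXCL3 and CXCL8 attract neutrophils through CXCR2 (CXCL8 also through CXCR1), CXCL10 is an interferon-induced ligand of CXCR3, and CXCL16 and CX3CL1 are made as transmembrane proteins whose ectodomains are shed. Many of these genes are switched on by NF-kB and AP-1 acting at sites close to the transcription start, and many of their mRNAs are short-lived because AU-rich elements in the untranslated 3′ end recruit decay factors.

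The stretches around a common kappa B core near the start of the neutrophil-attracting genes are shown because all 4 hold it, while their transcripts were at low levels in both groups. Each stretch is 30 bases from RefSeq's promoter sequence (GRCh38.p14), 5′ to 3′ on the gene's strand, and capitals mark the core GGAATTTCC.
CXCL8 (chr4:73740468-73740497, plus strand): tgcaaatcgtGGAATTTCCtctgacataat
CXCL1 (chr4:73869305-73869334, plus strand): tggaactccgGGAATTTCCctggcccgggg
CXCL2 (chr4:74099253-74099282, minus strand): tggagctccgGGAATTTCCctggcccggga
CXCL3 (chr4:74038748-74038777, minus strand): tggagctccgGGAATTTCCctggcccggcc
The RefSeq promoter table held 6 of the 10 members: CXCL8, CXCL1, CXCL2, CXCL3, CXCL10 and CCL20; CCL2, CCL5, CXCL16 and CX3CL1 were not matched. The core, chosen after these sequences were seen, lies at positions -78 to -70 in CXCL1 and CXCL3, -77 to -69 in CXCL2 and -91 to -83 in CXCL8, counted from the RefSeq start. GENCODE 29 starts the gene 98 bases further upstream in CXCL2, 118 in CXCL3 and 63 in CXCL8, so that by that annotation the core of CXCL2 and CXCL3 lies within the gene; both annotations give CXCL1 the same start. CXCL10 also holds the core, on the other strand at -176 to -168. Both strands of the 250 bases before the start were searched, and 0.413% of 35116 RefSeq promoters held the core. The longer NF-kB consensus, which overlaps the core, matched in CXCL1, CXCL2, CXCL3, CXCL10 and CCL20 and in 9.96% of all promoters, and the CXCL8 site differs from it. The AP-1 letters (TGANTCA) occurred in CXCL8 (-137 to -131) and in 6.57% of all promoters. An interferon-stimulated response element (GAAA repeated after a gap of 2 bases) occurred in CXCL10 (-221 to -212) and in 3.02% of all promoters. A C/EBP pattern (TTNNGNAA) occurred in CXCL2 and CXCL10 and in 33.2% of all promoters. Such matches describe the letters and do not show that a factor was bound.

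The mRNAs also differ in AU-rich sites. The 30-base stretch after the stop codon with the most ATTTA pentamers is shown for 6 members, and capitals mark the pentamers. The stretches are shown because 4 of 13 listed genes of AU-rich mRNA stability were called lower after irradiation. The other 9 were not called. Of all tested genes, 4.07% were called lower and 10.6% in either direction.
CCL2: aatgttaattcttATTTAagttattgatgt
CXCL8: cctATTTAttATTTAtgtATTTATTTAagc
CXCL1: aagtcttctATTTATTTATTTAttcattag
CXCL2: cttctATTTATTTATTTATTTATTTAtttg
CXCL3: gttctacttATTTAtgtATTTAtttttgaa
CCL20: tgtattttatgttATTTAtagctgtaggtt
In the longest GENCODE 29 protein-coding transcript, the part after the stop codon held 10 pentamers in CXCL2, 9 in CXCL8, 7 in CXCL3, 5 in CXCL1, 3 in CCL20 and 2 in CX3CL1. CCL2, CXCL10 and CXCL16 held 1 each, and CCL5 held 0. Per kilobase this was 13.9 in CXCL2, 10.4 in CXCL3, 7.19 in CXCL8, 7.08 in CXCL1, 6.24 in CCL20 and 2.66 in CCL2, against a median of 1.61 over 17933 genes. The other members lay below that median, with 1.23 in CXCL10, 1.02 in CXCL16, 0.995 in CX3CL1 and 0 in CCL5. The longer element TTATTTATT, which overlaps the pentamer, occurred in CXCL1, CXCL2, CXCL3, CXCL8 and CX3CL1, 5 of 10 members, and in 8.63% of those 17933 genes.

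In the control libraries 14248 to 14417 genes reached 1 TPM, against 14592 to 14889 in the irradiated libraries, without overlap. Libraries of a group correlated at 0.980 to 0.988 and libraries of different groups at 0.976 to 0.982 on the log2(TPM + 1) scale. Of 5 mesenchymal markers of this line, all were measured in every library (summed level 2550 to 2614 TPM in controls and 2064 to 2158 TPM in irradiated libraries), and VIM, AXL and CAV1 fell. ZEB1 (adjusted p = 0.455, limma) and CD44 (mean 214.8 TPM in controls and 226.4 TPM after irradiation, adjusted p = 0.777, limma) were not called. Of all tested genes, 4.07% were called lower. Of 6 luminal or epithelial markers, 3 were tested and none was called, with sums of 35.9 to 38.9 and 35.2 to 41.4 TPM, and PGR was at 0 in all libraries, ESR1 at 0.02 to 0.39 TPM and ERBB2 at 20.9 to 27.9 TPM. Leukocyte markers (6 genes) summed to 0.79 to 1.28 TPM in controls and 1.21 to 41.4 TPM in irradiated libraries. The upper value came from PTPRC in irradiated replicate 1 (40.4 TPM, against 0.11 to 0.45 in the other libraries). CD3E was at 0 in 5 of 6 libraries, while CSF1R had 0.30 to 0.50 TPM and CD14 0.17 to 0.59 TPM. Fibroblast markers (6 genes) summed to 7.51 to 11.1 TPM in controls and 11.3 to 14.95 TPM after irradiation, without overlap. Most of this was COL1A1, whose groups overlapped and which was not called (adjusted p = 0.239, limma). LUM had 0.56, 0.61 and 1.05 TPM in controls and 1.73, 1.89 and 1.33 TPM after irradiation, without overlap. LUM was not called (log2 change 0.61, adjusted p = 0.0646, limma), and DCN was at 0 in 4 libraries. Endothelial markers (5 genes) summed to 1.74 to 2.33 and 1.71 to 2.53 TPM. The part of these cell type markers in the results below was not tested. The log2 change of CCL2 was 0.96 without irradiated replicate 1 (adjusted p = 0.00501, limma) and 0.92 with it. Leaving out that library concerns its PTPRC value and not the other markers.

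CCL2 was by far the most abundant member and nearly doubled after irradiation. CCL2, the monocyte attractant (ENSG00000108691; chromosome 17, 34255218 to 34257203, plus strand, hg38), had 57.1, 51.4 and 53.3 TPM in the control libraries and 96.6, 105.9 and 106.0 TPM in the irradiated libraries. The groups did not overlap, and the lowest irradiated value lay well above the highest control value. The mean rose from 53.9 ± 2.88 to 102.8 ± 5.42 TPM (mean ± SD, n = 3 per group), a ratio of 1.91. On the log2(TPM + 1) scale the change was 0.92 ± 0.06 (SE), with a 95% interval of 0.78 to 1.06 and an adjusted p of 0.00177 (limma, Benjamini-Hochberg over 14621 genes). The call was kept in all 15 alternative settings, with changes of 0.87 to 0.96 and adjusted p of 0.000837 to 0.0297. Its coding sequence is 76.7% to 79.3% identical to those of CCL7, CCL8, CCL11 and CCL13. The longest exact run that it shares with any of these 4 transcripts is 23 bases, and their levels were 0 to 0.09 TPM. A gene was tested where 3 or more of the 6 libraries reached 1 TPM. Of the 4 members that passed this filter, CCL2 alone was called, against 6.53% of all tested genes called higher and 4.07% called lower (10.6% in all). A count of 1 in 4 is too small to be read against that share.

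**Figure D1:**
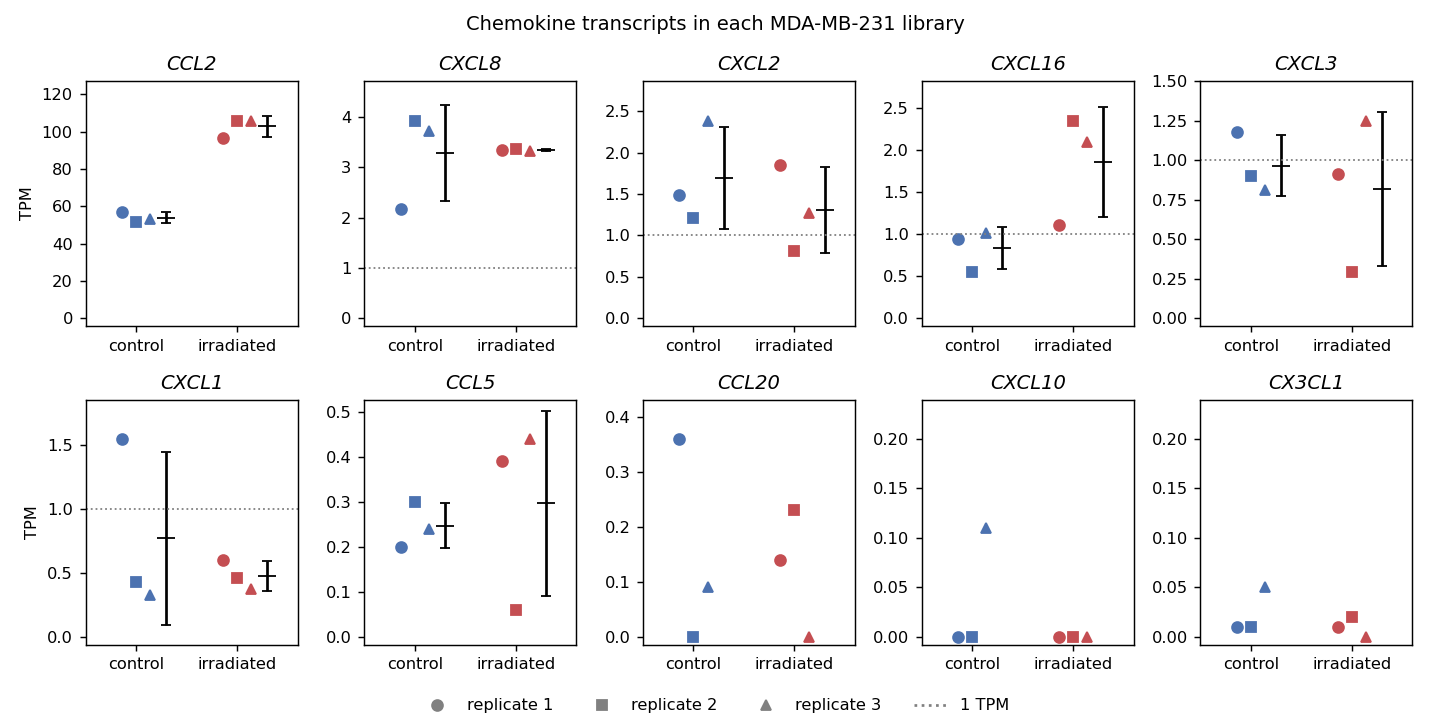
Level of each member (TPM, linear axis, own scale per panel) in the 3 control and 3 irradiated libraries; marker shapes are replicates, black bars mean ± SD (omitted where a library is at 0), the dotted line 1 TPM. CCL2 lay at 51.4 to 57.1 TPM in controls and 96.6 to 106.0 TPM after irradiation, while CXCL8 values overlapped.

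CXCL8, the neutrophil attractant also called interleukin 8 (ENSG00000169429; chromosome 4, 73740506 to 73743716, plus strand), was the next most abundant member but was far lower than CCL2. It had 2.18, 3.93 and 3.73 TPM in controls and 3.35, 3.37 and 3.33 TPM after irradiation. The irradiated values lay close together inside the control range. The means were 3.28 ± 0.958 and 3.35 ± 0.0200 TPM (SD, n = 3), with a log2 change of 0.05 ± 0.18 (SE; 95% interval -0.38 to 0.48; adjusted p = 0.886, limma). The sign turned without control replicate 1 (-0.15) and after quantile normalization (-0.07), so no direction is given; the interval does not reach a doubling or a halving on this scale.

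CXCL2 (ENSG00000081041; chromosome 4, 74097035 to 74099293, minus strand), whose kappa B and AU-rich stretches are printed above, had 1.49, 1.21 and 2.39 TPM in controls and 1.85, 0.81 and 1.27 TPM after irradiation. The groups overlapped, with the highest value in control replicate 3 and the lowest in irradiated replicate 2. Its log2 change was -0.22 ± 0.23 (SE; 95% interval -0.76 to 0.32; adjusted p = 0.570, limma), and -0.05 without control replicate 3 and -0.06 without irradiated replicate 2. CXCL3 (chromosome 4, 74036589 to 74038807, minus strand) had 1.18, 0.90 and 0.81 TPM in controls and 0.91, 0.29 and 1.25 TPM after irradiation. CXCL1 (chromosome 4, 73869393 to 73871242, plus strand) had 1.55, 0.43 and 0.33 TPM in controls and 0.60, 0.46 and 0.37 TPM after irradiation. CXCL1 and CXCL3 were below 1 TPM on average in both groups and did not pass the filter; their groups overlapped, and control replicate 1 alone held CXCL1 above 1 TPM. Irradiated replicate 2 was the lowest library for both CXCL2 and CXCL3, but not for CXCL1.

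These 3 genes are close copies. The coding sequences of CXCL1 and CXCL2 are 93.5% identical, those of CXCL2 and CXCL3 94.4% and those of CXCL1 and CXCL3 90.7%, and the longest exact runs shared by their transcripts are 77, 97 and 55 bases. Reads that fall within such runs could be assigned to either gene, so the split among them is uncertain, although only 5.73% of 50-base windows of CXCL1 occur in CXCL2. Their sum with CXCL8, which is 52.5% identical to CXCL1 in coding sequence, depends on that split only through the differing transcript lengths by which TPM are divided. It was 6.40 to 7.26 TPM in controls and 4.93 to 6.71 TPM after irradiation, and the ranges overlapped.

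The transmembrane chemokines differed in level. CXCL16, the ligand of CXCR6 (ENSG00000161921; chromosome 17, 4733526 to 4739922, minus strand), had 0.94, 0.55 and 1.01 TPM in controls and 1.11, 2.35 and 2.10 TPM after irradiation. The groups did not overlap, as in 34.9% of all tested genes, but control replicate 3 and irradiated replicate 1 lay close together. Its mean was 0.833 ± 0.248 TPM in controls, below 1 TPM, and 1.85 ± 0.656 TPM after irradiation (SD, n = 3). The log2 change was 0.62 ± 0.22 (SE; 95% interval 0.11 to 1.13), and it was not called (unadjusted p = 0.0228, adjusted p = 0.112, limma). Adjusted p was 0.0595 to 0.290 over the 14 alternatives that tested it. Control replicate 3 was the only control library of CXCL16 at 1 TPM or more, so it passed the filter largely through the irradiated group. CX3CL1, also called fractalkine, the ligand of CX3CR1 (chromosome 16, 57372458 to 57385048, plus strand), had 0.01, 0.01 and 0.05 TPM in controls and 0.01, 0.02 and 0 TPM after irradiation, close to the 0.01 TPM at which the table is rounded.

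The lymphocyte-directed members were hardly present. CCL5 (chromosome 17, 35871491 to 35880793, minus strand) had 0.20, 0.30 and 0.24 TPM in controls and 0.39, 0.06 and 0.44 TPM after irradiation, with irradiated replicate 2 the lowest of all. CCL20 (chromosome 2, 227805739 to 227817564, plus strand) had 0.36, 0 and 0.09 TPM in controls and 0.14, 0.23 and 0 TPM after irradiation. CXCL10 (chromosome 4, 76021117 to 76023497, minus strand) was listed at 0.11 TPM in control replicate 3 and at 0 in the other 5 libraries. The groups of all 3 genes overlapped. A listed 0 can be a failed estimate, and no fold is given. The 6 members below 1 TPM on average in both groups were CCL5, CCL20, CXCL1, CXCL3, CXCL10 and CX3CL1; CXCL16 was below it in controls only. With no filter these 6 were fitted too, with adjusted p of 0.636 to 0.936 (limma) and log2 changes between -0.20 and 0.04.

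In order of mean level over the 6 libraries, CCL2 (78.4 TPM) came before CXCL8 (3.32), CXCL2 (1.503), CXCL16 (1.34), CXCL3 (0.890), CXCL1 (0.623), CCL5 (0.272), CCL20 (0.137), CXCL10 (0.0183) and CX3CL1 (0.0167). CCL2 was 23.6 times as high as CXCL8, and their ranges over the 6 libraries did not overlap. Each of the other neighbours in this order overlapped in range. The 10 members together summed to 58.7 to 64.97 TPM in controls and 104.95 to 114.8 TPM after irradiation. Without CCL2 the other 9 summed to 7.33 to 8.76 TPM in controls and 7.59 to 8.76 TPM after irradiation, and these ranges overlapped.

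**Figure D2:**
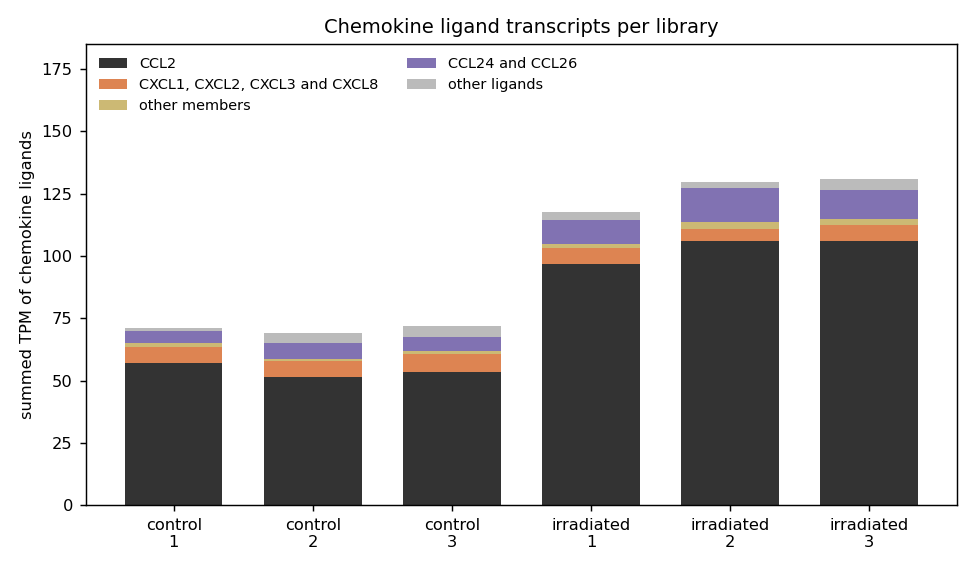
Summed TPM of 46 chemokine ligands in each library (linear axis from 0), stacked by gene group. CCL2 made up 74.0% to 80.3% of the sum in controls and 81.0% to 82.0% after irradiation, and the CXCL1, CXCL2, CXCL3 and CXCL8 layer stayed at 4.93 to 7.26 TPM.

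Among the 36 other chemokine ligands found in the table, CCL24 and CCL26, both ligands of CCR3, had the highest mean levels; CCL11, the other eotaxin gene, was at 0 in all libraries. CCL24, known as eotaxin-2, an eosinophil attractant (chromosome 7, 75811665 to 75823356, minus strand), had 3.09, 2.93 and 2.68 TPM in controls and 5.54, 7.63 and 6.48 TPM after irradiation. No control value reached the irradiated range. It rose with a log2 change of 0.95 ± 0.13 (SE; 95% interval 0.63 to 1.26; adjusted p = 0.00950, limma) and kept its call in all 15 alternatives. CCL26, known as eotaxin-3 (chromosome 7, 75769533 to 75789896, minus strand), had 1.73, 3.61 and 2.81 TPM in controls and 3.76, 6.23 and 5.31 TPM after irradiation. The groups of CCL26 did not overlap, but the change of 0.73 ± 0.23 (SE; 95% interval 0.18 to 1.27) was not called (adjusted p = 0.0905, limma; 0.0533 to 0.251 over alternatives). CCL24 and CCL26 lie close together, and the longest exact run shared by their transcripts is 9 bases. CXCL13, a B cell attractant, had 0, 1.96 and 3.40 TPM in controls and 1.98, 0.77 and 2.24 TPM after irradiation and was not called (adjusted p = 0.896, limma). CCL28, a mucosal chemokine, had 0.81 to 1.46 TPM in controls and 0.84 to 1.12 TPM after irradiation, below the filter. Of the 36 ligands, 18 were at 0 in all 6 libraries. Only 3 were tested and 1 rose, against 6.53% of all tested genes, too few to be read against that share.

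The receptors named here for the secreted members were at or near 0 TPM in these cells. CCR2, the CCL2 receptor, had 0 to 0.09 TPM, CXCR1 and CXCR2 had 0 to 0.04 TPM, and CXCR3 and CX3CR1 were at 0 in all libraries. CCR6 had 0 to 0.03 TPM and CXCR6 0.11 to 0.45 TPM. Of 23 receptors, 2 passed the filter and 1 rose, again too few to be read against the 6.53% of all tested genes called higher. CCRL2, an atypical receptor that binds the attractant chemerin, had 14.3, 13.3 and 12.7 TPM in controls and 18.9, 17.0 and 18.8 TPM after irradiation. Its values did not overlap, and its log2 change was 0.41 ± 0.08 (SE, adjusted p = 0.0235, limma). The call of CCRL2 was lost when any library but irradiated replicate 2 was left out (adjusted p up to 0.0909), with no filter, and with the replicate block. CCR10, a receptor for CCL27 and CCL28, had 2.61, 1.58 and 2.41 TPM in controls and 3.63, 2.70 and 3.58 TPM after irradiation. It was not called (log2 change 0.43 ± 0.17, adjusted p = 0.155, limma).

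**Figure D3:**
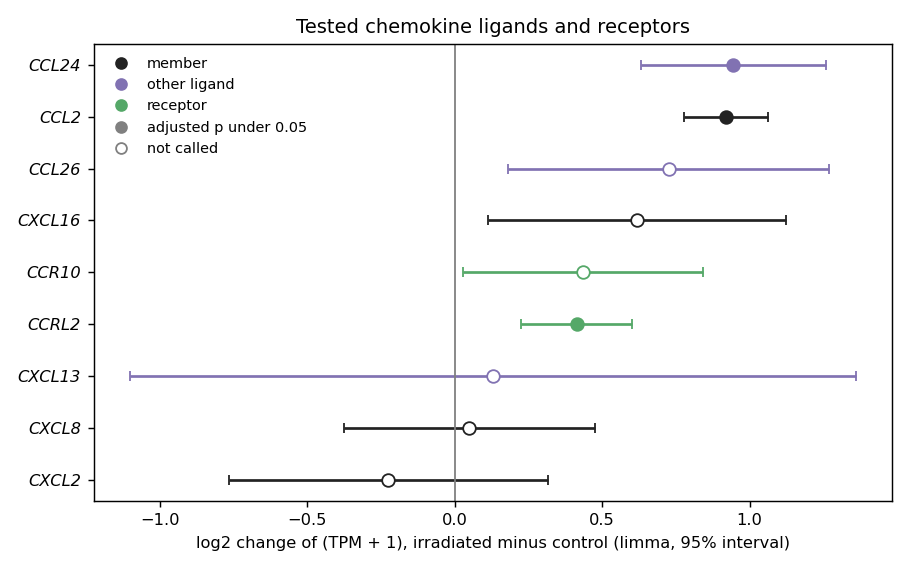
Log2 change of TPM + 1, irradiated minus control, for the 9 chemokine ligands and receptors that passed the filter; bars are 95% intervals from limma, and filled points had an adjusted p under 0.05. CCL2 (0.92), CCL24 (0.95) and CCRL2 (0.41) are filled; the intervals of CXCL8 and CXCL2 span 0.

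Genes that act on chemokine transcripts moved in both directions. Counts below are members called by limma over all tested genes, beside 10.6% called overall and a median log2 change of 0.03 over all tested genes. Of 18 NF-kB subunits, kinases and inhibitors, 2 rose and 3 fell (median -0.08). NFKB2, which encodes the p100 and p52 subunit, had 31.2, 33.6 and 34.5 TPM in controls and 49.7, 51.3 and 49.1 TPM after irradiation, without overlap. Its log2 change was 0.58 ± 0.06 (SE, adjusted p = 0.00375), kept in all 15 alternatives. IKBKE, a kinase related to the IkB kinases, rose (0.53 ± 0.11, adjusted p = 0.0294). BCL3, an atypical IkB protein gene, fell (-0.67 ± 0.16, adjusted p = 0.0391), as did RELA, which encodes p65 (-0.32 ± 0.08, adjusted p = 0.0474), and TNIP1, an A20-binding inhibitor gene (-0.20 ± 0.05, adjusted p = 0.0430). The classical NF-kB feedback gene NFKBIA had 43.9 to 48.4 TPM in controls and 38.1 to 44.0 TPM after irradiation and was not called. Of 10 AP-1 and C/EBP genes, none rose and 3 fell (median 0.03): FOSL1 (-0.30 ± 0.05, adjusted p = 0.0132), FOSL2 (-0.38 ± 0.09, adjusted p = 0.0416) and JUN (-0.25 ± 0.05, adjusted p = 0.0224), subunits of AP-1. IKBKE lost its call without any 1 of 5 libraries, all but irradiated replicate 1 (adjusted p up to 0.101). BCL3, FOSL2 and JUN lost theirs without any 1 library but irradiated replicate 2 (up to 0.123, 0.138 and 0.0818), RELA without any but control replicate 3 (up to 0.144), and TNIP1 in each of the 6 fits that leave out a library (up to 0.123). FOSL1 was no longer called when control replicate 1, control replicate 2 or irradiated replicate 3 was left out (up to 0.0631).

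Of 16 genes of interferon signalling, 3 rose and 1 fell (median 0.10). IRF9, the DNA-binding subunit of the interferon-activated complex that holds STAT2, had 25.3, 27.9 and 25.3 TPM in controls and 36.2, 38.1 and 35.3 TPM after irradiation. The groups did not overlap (log2 change 0.47 ± 0.06 SE, adjusted p = 0.00921, limma), and the call was kept in all 15 alternatives. STAT2 (0.42 ± 0.08, adjusted p = 0.0202) and IRF3, a factor downstream of nucleic acid sensors (0.22 ± 0.04, adjusted p = 0.0243), rose, and SOCS3, an inhibitor of cytokine signalling, fell (-0.30 ± 0.06, adjusted p = 0.0245). CXCL10, whose promoter holds the letters of a response element for such factors, was listed at 0 in 5 libraries, control and irradiated. It had 0.11 TPM in control replicate 3, too low in both groups to show a change, and a link was not tested. STAT2 and SOCS3 lost their calls without any 1 library but irradiated replicate 2 (adjusted p up to 0.0771 and 0.0908), and IRF3 without any but control replicate 3 or irradiated replicate 2 (up to 0.0961).

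Of 13 genes of AU-rich mRNA stability, none rose and 4 fell (median -0.16). HNRNPD, which encodes the AU-rich element binding protein AUF1, had 442.9, 427.4 and 396.0 TPM in controls and 297.7, 294.3 and 291.8 TPM after irradiation. No values overlapped, and the log2 change of -0.52 ± 0.05 (SE, adjusted p = 0.00351, limma) was kept in all 15 alternatives. ZFP36L2, a decay factor of the tristetraprolin family, fell by 0.46 on the log2 scale (SE 0.08, adjusted p = 0.0186). KHSRP, a decay-promoting protein gene (-0.25 ± 0.04, adjusted p = 0.0103), and ELAVL1, which encodes the stabilising protein HuR (-0.24 ± 0.05, adjusted p = 0.0288), fell too, so genes of opposite known action moved in the same direction. Of the members with the densest pentamers, CXCL2 and CXCL8 were not called, and CXCL1 and CXCL3 did not pass the filter. A link between these genes and the members was not tested. ZFP36L2 was not called when control replicate 1, control replicate 2 or irradiated replicate 3 was left out (adjusted p up to 0.0809), KHSRP without control replicate 2 (0.0545) and ELAVL1 without any 1 library but irradiated replicate 2 (up to 0.0999).

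Of 14 tested genes that shed, trim or display chemokines, 2 rose and none fell (median 0.02). HSPG2, the gene of the heparan sulfate proteoglycan perlecan, rose from 18.8 ± 0.940 to 27.9 ± 2.999 TPM (SD, n = 3; log2 change 0.54 ± 0.09 SE, adjusted p = 0.0146, limma). SDC3, a syndecan gene, rose from 21.6 ± 0.587 to 25.5 ± 0.0850 TPM (0.23 ± 0.06 SE, adjusted p = 0.0468) but lost its call in 13 of 15 alternatives, among them each of the 6 that leave out a library (adjusted p up to 0.134). ADAM10 and ADAM17, the proteases that shed CXCL16 and CX3CL1, had 119.3 to 145.8 and 23.9 to 24.6 TPM in controls and 80.7 to 136.2 and 18.6 to 25.2 TPM after irradiation; neither was called, and irradiated replicate 2 was the lowest library for both. HSPG2 was not called when control replicate 1 or control replicate 2 was left out (adjusted p up to 0.0584). Of 11 tested inducing cytokines and receptors, 1 rose and none fell (median -0.04). It was IL18, a cytokine of the interleukin-1 family, with 49.3, 45.9 and 51.4 TPM in controls and 71.4, 77.3 and 65.0 TPM after irradiation (log2 change 0.53 ± 0.08 SE, adjusted p = 0.00968). TNF, a classical inducer of CCL2, was at 0 in 5 libraries and 0.03 TPM in the other, and IL1B had 1.37 to 1.93 TPM in all 6. IL6 had 0.35 to 1.35 TPM in controls and 0.90 to 1.37 TPM after irradiation and was not called (adjusted p = 0.509, limma). IL1A, below the filter, had 0.86 to 0.94 and 0.88 to 1.15 TPM. A link between these cytokines and CCL2 was not tested.

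Some calls in these lists also depended on the fit. With the replicate block, of the genes named above as called in the regulatory lists, NFKB2, FOSL1, IRF9 and HNRNPD kept their calls, and the others lost them. With no filter, the calls of SDC3, BCL3, IKBKE, RELA, TNIP1, FOSL2, STAT2, IRF3 and ELAVL1 were lost, and with eBayes without trend those of SDC3, BCL3, RELA, TNIP1, FOSL2, JUN, IRF3, KHSRP and ELAVL1. RELA also lost its call with a pseudocount of 0.1 and after quantile normalization, and IRF3 after median-ratio scaling and after GC and length correction.

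**Figure D4:**
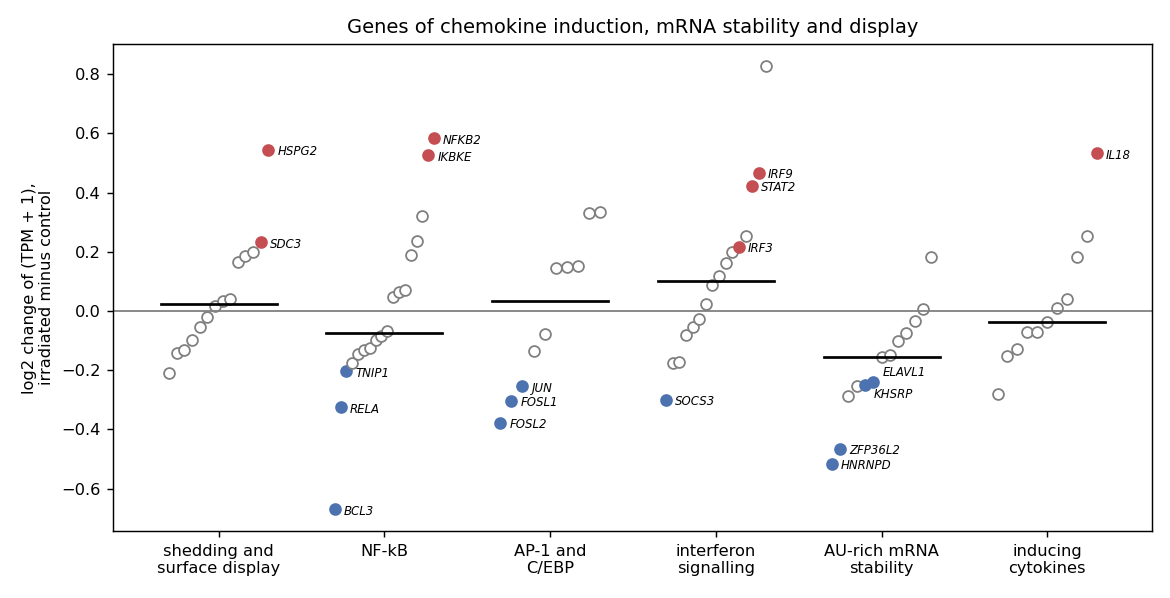
Log2 change of TPM + 1, irradiated minus control, for every tested gene of 6 lists of chemokine regulation; red points rose and blue points fell at an adjusted p under 0.05 (limma), open points were not called, and black lines are list medians. NFKB2 (0.58) and HNRNPD (-0.52) are among the named points, and all 4 called genes of the AU-rich list lie below 0.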

How the data were processed

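RNA-seq of 3 control and 3 irradiated MDA-MB-231 samples was grouped by sample title. The deposited values are TPM, computed by the authors and given to 2 decimals in 1 table; the submitters' processing notes name HISAT2, StringTie, RSEM and hg38, without versions, roles or order, and strand is not given in the sources used here. Rows that reached 1 TPM in 3 or more of the 6 samples (14621) were compared on log2(TPM + 1) with limma 3.58.1 in R 4.3.3 (eBayes with trend, two-sided, Benjamini-Hochberg over all tested genes, threshold 0.05). The pseudocount understates changes near 1 TPM, and TPM are shares, so other transcripts affect each value. At most 0.479% of tested values were identical between libraries of a group. The script was tested on simulated data.

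The members and lists were chosen with earlier results of these data known. Named genes were all 10 members and, per list, up to 4 called genes with the largest change, or the 2 most abundant where none was called; ligands and receptors of 1 TPM or more on average were added. Other genes were named after their values were seen: TNIP1, NFKBIA, ADAM10, ADAM17, TNF, IL1A, IL1B, IL6, IRF1, CCL7, CCL8, CCL11, CCL13, CD3E, CD14, PGR, DCN and receptors of the members. All listed genes were matched by symbol or identifier, and some are not reported here. Promoters came from RefSeq (GRCh38.p14), transcripts and coordinates from GENCODE 29 (same assembly as hg38), and identities were computed with Biopython 1.88. Alternatives were pseudocount 0.1, no filter, a 5 TPM filter, median-ratio scaling, quantile normalization, eBayes without trend or robust, GC and length correction, the replicate block, and fits that left out each library in turn.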

Additional observations from a re-analysis of the deposited data

How the results depend on the processing

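The count of called members was 1, CCL2, under all 15 alternatives. The count of all called genes was 1550; it was 497 with no filter, 993 with eBayes without trend, 362 with the replicate block and 306 to 1390 with a library left out. The split of all calls was 955 higher and 595 lower, 778 and 852 after median-ratio scaling, and 844 and 1477 after GC and length correction. Of the 87 tested genes in the other lists of chemokine biology, 21 were called (10 higher, 11 lower), and 11 with no filter, 12 with eBayes without trend, 5 with the replicate block and 5 to 19 with a library left out. Fits with fewer samples have less power. The fits that left out a library were of equal size but differed in their counts. Without irradiated replicate 2, 1390 of all genes and 19 of the listed genes were called. Without any other library these counts were 306 to 774 and 5 to 11, and the cause was not tested. CXCL8, not called, changed by 0.05, but by -0.072 after quantile normalization and by -0.15 to 0.17 with a library left out, below 0 without control replicate 1. CXCL13, not called, changed by 0.13, but by -0.49 to 0.58 with a library left out, below 0 without control replicate 1 (-0.49) or irradiated replicate 3 (-0.03); the cause was not tested. Of 25 named genes that were called, markers included, 8 kept the call under all 15 alternatives, 17 lost it in at least 1, and none changed direction. The replicate block changed no call of a member. Samples with a shared number did not deviate together (correlations 0.03, -0.06 and -0.03), and they were not taken as pairs. Values below 1 TPM rest on an unknown and probably small number of reads.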

Other observations

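IRF1, a transcription factor of interferon responses that can act on CXCL10, varied more between replicates than any called gene of its list. It had 15.4, 10.6 and 29.6 TPM in controls and 50.1, 49.4 and 11.6 TPM after irradiation, and was chosen after its values were seen. Irradiated replicates 1 and 2 were high and irradiated replicate 3 lay inside the control range, and the gene was not called (log2 change 0.83 ± 0.58 SE, adjusted p = 0.398, limma). CXCL10 was listed at 0 in 5 libraries, control and irradiated, and at 0.11 TPM in control replicate 3. At such levels it cannot be compared with IRF1, and a link was not tested.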
